A study of Mus musculus with 6 samples.

Results

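The genes described here are 32 genes of astrocytes, the star-shaped glia that fill the grey matter of the cortex. The list joins identity and reactive genes and was chosen with earlier results of these data known. It was applied by symbol alone, with no filter on level or change. All 32 had a row among the 14250 rows of the count table. The tissue was the anterior cingulate cortex (ACC), part of the medial frontal cortex, of C57BL/6 mice at postnatal day 45. The 3 LPS mice had received lipopolysaccharide, a bacterial endotoxin that triggers inflammation, at 50 µg per kg into the abdomen on postnatal day 14. The 3 saline mice had received pyrogen-free saline on the same day, and no mutation, transgene or further agent is named for either group. Each library came from 1 mouse that was anaesthetized with isoflurane and pentobarbital, perfused with cold buffer and dissected by hand with a needle, so neighbouring tissue may be included to differing degrees. The sources used here do not give sex, litter or order of collection.

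Astrocytes take up the transmitters glutamate and GABA, turn glutamate into glutamine, buffer potassium and water at their endfeet on blood vessels, and store the brain's glycogen. After injury or inflammation they can become reactive, a state known for more of the filament protein GFAP, of vimentin and of the secreted inhibitor Serpina3n. The series title names early inflammation, depressive symptoms in adolescence and microglia. The comparison here asks whether the astrocyte genes differ weeks after the injection.

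Libraries held 36168687 to 41270737 counts, and the members had from 368 counts (Serpina3n) to 151925 counts (Slc1a2) in a library. Rows without a gene identifier took 2.51 to 2.93% of the counts in saline and 1.61 to 2.03% in LPS libraries, and mitochondrial genes 9.91 to 12.7% over all 6. Levels are given as CPM, library counts scaled to a common total with TMM factors, which correct for composition, and changes as log2 of LPS over saline with a standard error (SE). The test was edgeR's quasi-likelihood test over all 14250 rows, with p-values adjusted by the Benjamini-Hochberg method and a threshold of 0.05. In bulk tissue, fewer astrocytes and less of a transcript per astrocyte cannot be told apart.

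No astrocyte gene passed the test, and most were level between the groups. The edgeR counts were 0 of 32 higher and 0 of 32 lower, against 0.0982% and 0.189% of all rows. The median log2 change of the 32 was -0.01, beside 0.00 over all rows, with 15 values above 0 and 17 below. Before adjustment, 0 members were higher at p under 0.05, against 3.63% of all rows, and 3 lower, which is 9.38% of the members against 3.54% of all rows. These were Ppp1r3c, Slc39a12 and S100b. DESeq2, a second count test, called 0 members higher, against 0.421% of all rows, and 1 lower, Ppp1r3c, against 0.561%. In 5 members (15.6%) each LPS library lay below each saline library, and in 1 member (3.12%) above. Of all rows, 6.84% lay below and 6.84% above in this way.

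The data limit how large a change could be missed. A 95% interval of the log2 change, from the edgeR fit and not adjusted over genes, lay within 1.5-fold in both directions for 27 of the 32 members. It reached past that bound for Slc1a2, Vim, Gfap, Sox9 and Ppp1r3c. Replicates were tight: the largest ratio between 2 libraries of a group had a median of 1.15 over the members and 1.21 over all rows. It stayed under 1.5 in 30 members, the exceptions being Vim at 1.82 and Slc1a2 at 4.99.

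**Figure D1:**
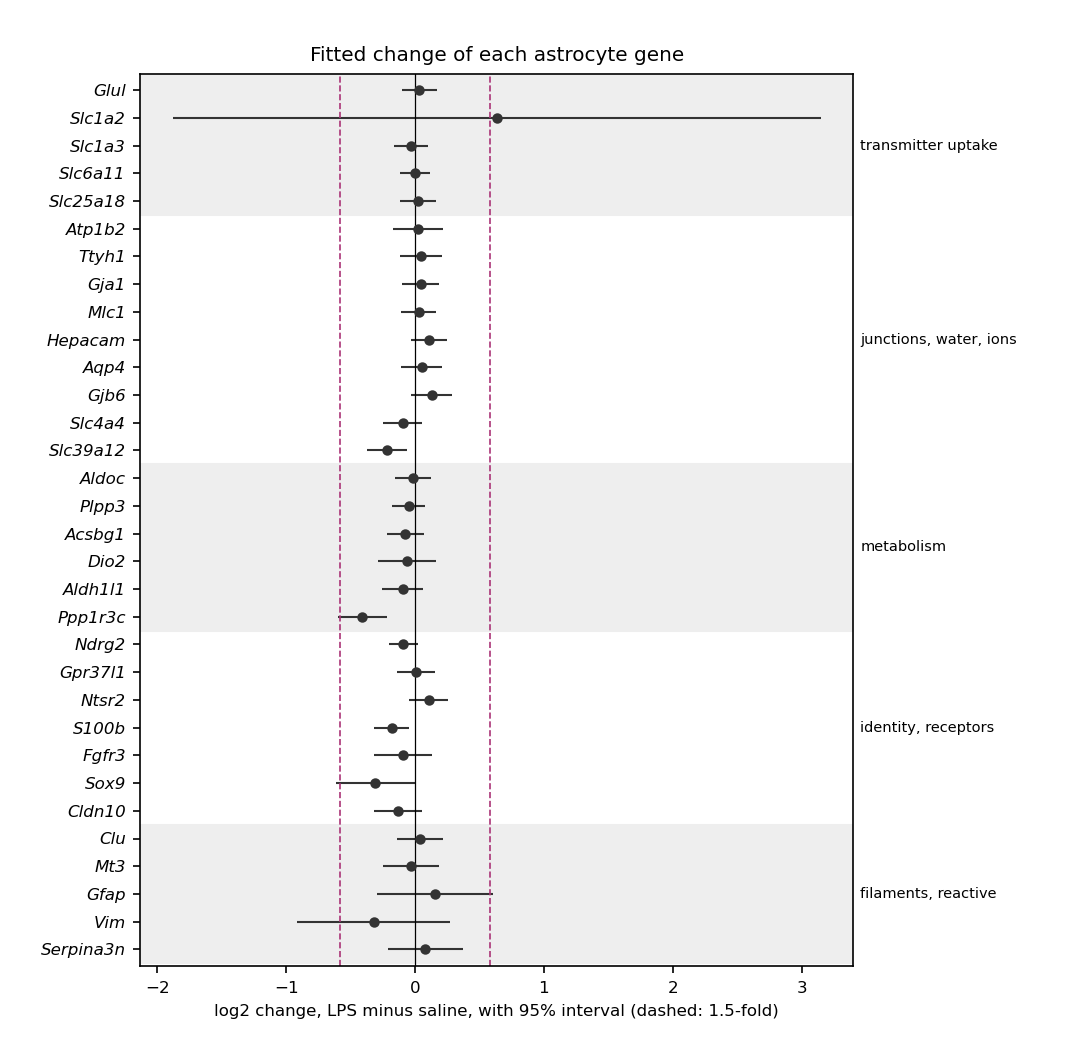
Fitted log2 change (LPS minus saline) of each of the 32 astrocyte genes with its unadjusted 95% interval, grouped by role; dashed lines mark 1.5-fold. Of the 32 intervals, 27 lie between the dashed lines, and that of Slc1a2 is the widest, from -1.88 to 3.15.

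Ppp1r3c had the smallest p of the 32 genes. It codes for a subunit that brings protein phosphatase 1 to glycogen and so favours glycogen synthesis, and the gene lies on chromosome 19 (36731731 to 36736653, minus strand, GRCm38). Its levels were 58.7, 49.1 and 51.9 CPM in Saline 1, 2 and 3, and 37.0, 40.6 and 42.7 CPM in LPS 1, 2 and 3. All 3 LPS mice were below all 3 saline mice. The means were 53.2 ± 4.95 and 40.1 ± 2.88 CPM (SD, n = 3 each), and the log2 difference was -0.41 (SE 0.0856, adjusted p = 0.148 in edgeR, 0.00871 in DESeq2). Leaving out 1 library gave log2 changes from -0.33 to -0.47 in edgeR, and the DESeq2 adjusted p rose to 0.0941 without Saline 1, 0.0871 without LPS 1 and 0.0542 without LPS 2.

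Slc39a12 and S100b were next in order of p. Slc39a12, a zinc importer gene of astrocytes on chromosome 2 (14388316 to 14494977, plus strand), had 53.2, 51.9 and 49.9 CPM in saline and 41.3, 47.3 and 44.8 CPM in LPS libraries. The groups did not overlap, and the log2 change was -0.22 (SE 0.0697, adjusted p = 0.502 in edgeR). S100b, the gene of a calcium-binding protein widely used as an astrocyte marker, lies on chromosome 10 (76253853 to 76261159, plus strand). It had 65.6, 63.1 and 59.5 CPM in saline and 54.7, 54.8 and 56.5 CPM in LPS libraries, again without overlap. Its log2 change was -0.18 (SE 0.0605, adjusted p = 0.522 in edgeR). DESeq2 gave adjusted p of 0.429 for Slc39a12 and 0.556 for S100b, so neither passed in either tool.

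The start regions of these 3 genes are printed because they were the members with an unadjusted p under 0.05, all with lower values. Sequences are from RefSeq promoter windows (GRCm38.p6, 28 of the 32 members matched), 5′ to 3′ on the gene's strand, from 250 bases before the RefSeq start and ending before the first annotated exon. They cover chr19:36736654-36736854 (minus), chr2:14388148-14388315 (plus) and chr10:76253586-76253835 (plus), in that order. Capitals mark matches on either strand to TGACG (part of a CREB site), ACGTG (core of a hypoxia response site, which a palindromic E-box holds on both strands), ACAAT (SOX core) or TTGGC (part of an NFI site).
Ppp1r3c: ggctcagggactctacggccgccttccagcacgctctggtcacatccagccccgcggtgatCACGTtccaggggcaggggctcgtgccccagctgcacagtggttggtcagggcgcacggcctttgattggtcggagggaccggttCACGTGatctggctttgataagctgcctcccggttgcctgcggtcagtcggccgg
Slc39a12: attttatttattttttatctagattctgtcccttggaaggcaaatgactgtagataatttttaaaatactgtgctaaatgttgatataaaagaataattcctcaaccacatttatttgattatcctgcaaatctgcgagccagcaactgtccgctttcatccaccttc
S100b: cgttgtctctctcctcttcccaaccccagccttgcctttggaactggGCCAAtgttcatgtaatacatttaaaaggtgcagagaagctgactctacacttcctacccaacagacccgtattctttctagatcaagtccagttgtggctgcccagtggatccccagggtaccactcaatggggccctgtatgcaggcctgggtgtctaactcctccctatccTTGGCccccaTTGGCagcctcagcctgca
The Ppp1r3c window held 3 matches to the hypoxia core, with an E-box counted on both strands, and 4270 of all 32851 RefSeq windows cut to that length held the motif. The S100b window held 3 matches to the NFI motif, which was present in 41.5% of windows of its length. None of the 4 motifs was in the Slc39a12 window, and no motif was shared by the 3 windows. Of windows cut to the Ppp1r3c length, 12.8% held the CREB, 23.8% the SOX and 35.2% the NFI motif. At the S100b length the shares were 17.8% for CREB, 16.6% for hypoxia and 27.7% for SOX. At the Slc39a12 length they were 9.7% for CREB, 10.4% for hypoxia, 20.4% for SOX and 29.2% for NFI.

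Near Ppp1r3c on chromosome 19, 2 genes passed the test in the other direction, while log2 changes in the window went both ways. Of 14 tested genes that start within 1000 kb of its start, edgeR called 2, both higher in LPS mice. Over all rows, edgeR called 0.0982% higher and 0.189% lower. The window was chosen after the values were seen. Btaf1, a regulator of the TATA-binding protein whose gene starts 189 kb away, had 32.7 ± 2.80 CPM in saline mice against 47.6 ± 3.97 CPM (SD, n = 3 each; log2 0.54, SE 0.0884, adjusted p = 0.0499 in edgeR). Ide, the insulin-degrading enzyme gene 601 kb away, had 50.5 ± 3.17 CPM in saline mice against 75.3 ± 2.94 CPM (log2 0.58, SE 0.0658, adjusted p = 0.00698 in edgeR). Fgfbp3, 183 kb away and coding for a growth factor-binding protein, was higher in each LPS library (log2 0.53, SE 0.121, adjusted p = 0.211 in edgeR, 0.0476 in DESeq2). On the far side, the ubiquitin ligase gene Hectd2 had a value of 0.56 (SE 0.197, adjusted p = 0.611 in edgeR), with groups that overlapped. Tnks2, which lies between Ppp1r3c and Fgfbp3, had a log2 change of -0.09 (SE 0.067). Cpeb3 and March5, between Btaf1 and Ide, both had 0.06. In all, 8 of the 14 genes had a value below 0, Ppp1r3c included. The lowest was that of Kif11, a mitotic kinesin gene expressed at 1.51 ± 0.356 CPM in saline and 0.915 ± 0.228 CPM in LPS mice (SD, n = 3 each; log2 -0.72, SE 0.308, adjusted p = 0.696 in edgeR), with each LPS library below each saline library. Hhex, a homeobox gene, had -0.48 (SE 0.311) and Pcgf5, a Polycomb subunit gene, -0.33 (SE 0.165), both with groups that overlapped. Whether the mice also differed in genotype or copy number at this segment was not tested, and such a difference cannot be told apart from the treatment.

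**Figure D2:**
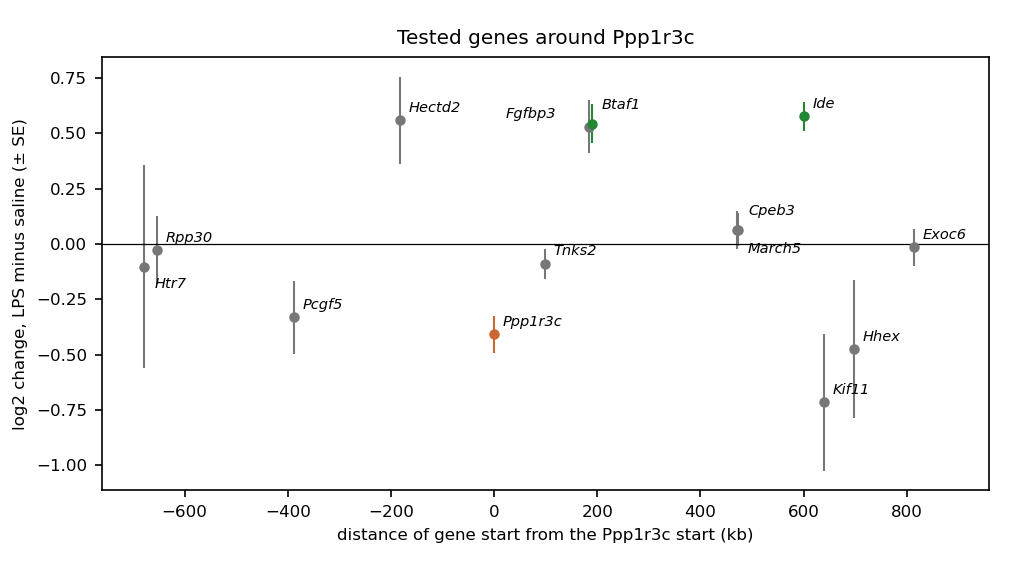
Log2 change (LPS minus saline, ± SE, n = 3 each) of the 14 tested genes starting within 1000 kb of the Ppp1r3c start, against distance in kb; orange marks Ppp1r3c and green the genes with edgeR adjusted p under 0.05. Ppp1r3c lies at -0.41, with Hhex at -0.48 and Kif11 at -0.72 below it, and Fgfbp3, Btaf1, Hectd2 and Ide lie between 0.53 and 0.58.

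Genes of transmitter uptake and recycling were level, apart from Slc1a2. Slc1a3, the gene of the glutamate transporter GLAST, had 789, 752 and 751 CPM in saline and 718, 800 and 726 CPM in LPS libraries. The groups overlapped, with means of 764 ± 21.7 and 748 ± 45.4 CPM (SD, n = 3 each; log2 -0.03, SE 0.0596). Glul, which codes for glutamine synthetase, had 1915 ± 82.8 and 1960 ± 83.5 CPM. The steadiest member was Slc6a11, the gene of the GABA transporter GAT3, between 220 and 228 CPM in all 6 libraries. Its log2 change was 0.00 (SE 0.0504), with a 95% interval from -0.11 to 0.11. Slc25a18, a mitochondrial glutamate carrier gene, had a log2 change of 0.02 (SE 0.0609).

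Slc1a2, the gene of GLT-1, the main glutamate transporter of the forebrain, separated the libraries without regard to treatment. Its counts were 33067, 38661 and 128020 in Saline 1, 2 and 3, and 149235, 151925 and 27452 in LPS 1, 2 and 3. These are 866, 966 and 3365 CPM in saline and 3558, 3755 and 752 CPM in LPS libraries. Saline 3, LPS 1 and LPS 2 were thus high and the other libraries low, with no value in between. The authors' FPKM, fragments scaled by transcript length and depth, gave the same order, at 68.5, 81.7 and 273.6 in saline and 288.8, 291.7 and 62.2 in LPS libraries. The fitted log2 change was 0.63 with an SE of 0.922 (adjusted p = 0.923 in edgeR), so the data give no usable comparison for this gene. A range over 4-fold within a group occurred in 192 rows, 1.35% of all, and among the members only in Slc1a2. The row spans 132 kb on chromosome 2 (102658659 to 102790784, plus strand) in 20 exon blocks. No other tested gene's exons overlap it. Reads were not used here, so whether counting or the assignment of reads to transcripts differed between the libraries was not tested.

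**Figure D3:**
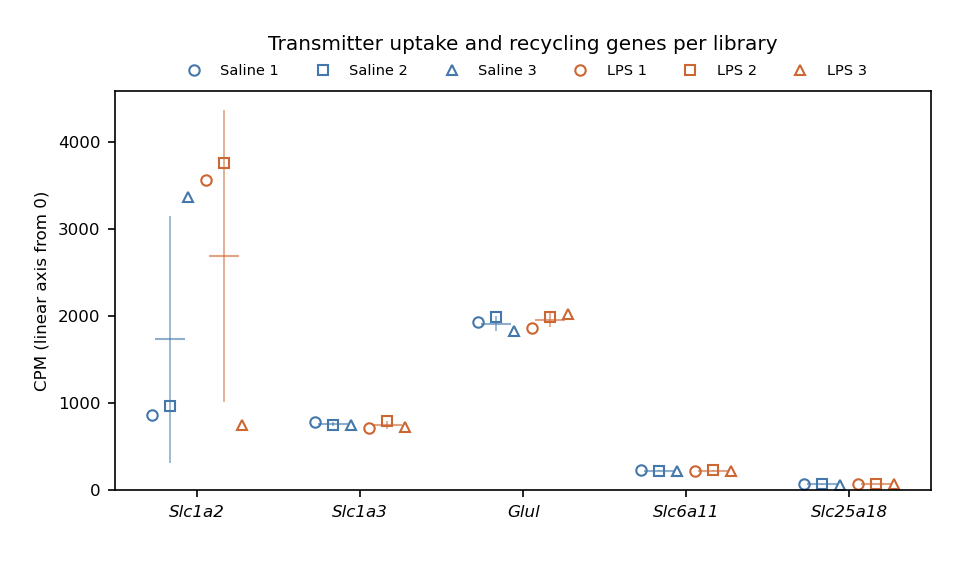
CPM of 5 transmitter uptake and recycling genes in each library on a linear axis from 0; horizontal marks with bars are group means ± SD (n = 3). Slc1a2 is at 752 to 966 CPM in Saline 1, Saline 2 and LPS 3 and at 3365 to 3755 CPM in Saline 3, LPS 1 and LPS 2, while the other 4 genes stay close to their means.

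Slc1a2 also sets the summed level of the list. The 32 genes together had 9778, 9722 and 11908 CPM in Saline 1, 2 and 3, and 11756, 12739 and 9698 CPM in LPS 1, 2 and 3. Without Slc1a2 the sums were 8912, 8756 and 8543 CPM in saline and 8197, 8984 and 8946 CPM in LPS libraries. The log2 ratio of the group means was 0.12 with Slc1a2 and -0.01 without it. LPS 1 had the lowest value of the 6 libraries in 13 members and the highest in 1.

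Genes of gap junctions, water channels and ion handling showed small differences in both directions, 7 of 9 with a log2 change above 0 and Slc39a12, described above, the lowest of them. Gjb6, the connexin 30 gene, had 48.3, 50.7 and 51.0 CPM in saline and 51.9, 52.8 and 59.6 CPM in LPS libraries. Each LPS value was above each saline value, but by little (log2 0.13, SE 0.0706, adjusted p = 0.757 in edgeR). Gja1, the gene of the partner connexin 43, had 235 ± 12.9 and 243 ± 12.7 CPM (SD, n = 3 each). Aqp4, the water channel of the endfeet, had 140, 152 and 153 CPM in saline and 141, 166 and 154 CPM in LPS libraries, so the groups overlapped (log2 0.05, SE 0.0711). Hepacam, an adhesion protein gene whose product holds the membrane protein MLC1 at cell contacts, had a log2 change of 0.11 (SE 0.0629) and Mlc1 itself 0.03 (SE 0.0609). The sodium bicarbonate cotransporter gene Slc4a4 had -0.10 (SE 0.0673), the sodium pump subunit gene Atp1b2 0.02 (SE 0.0862) and the chloride channel family gene Ttyh1 0.04 (SE 0.0727).

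A wider list of endfoot genes held no call. It covered the endfoot and dystrophin complex, which anchors Aqp4 to the vessel wall, with 12 genes, Aqp4, Mlc1 and Hepacam included. Of these, 0 passed in edgeR or reached p under 0.05 before adjustment. The log2 change was above 0 in 10 of the 12, with a median of 0.03 and a range from -0.10 to 0.22. Agrn, a matrix proteoglycan gene, had 0.07 (SE 0.0656).

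Among the metabolic genes, all 6 log2 changes lay below 0, and only that of Ppp1r3c was beyond -0.10. Aldoc, an aldolase of glycolysis, had means of 865 ± 30.1 and 854 ± 55.1 CPM (SD, n = 3 each). Aldh1l1, a folate enzyme gene used as a pan-astrocyte marker, had 67.1, 78.2 and 67.6 CPM in saline and 66.0, 65.7 and 67.3 CPM in LPS libraries. Saline 2 stood above the other 5 libraries. Log2 changes were -0.08 for the acyl-CoA synthetase gene Acsbg1 (SE 0.0628), -0.05 for the lipid phosphatase gene Plpp3 (SE 0.0559) and -0.06 for Dio2 (SE 0.0994), which activates thyroid hormone. The thyroid hormone list held 0 called genes of 8 and a median of 0.01, with the receptor gene Thra at 0.14 (SE 0.0584).

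Genes of glycogen turnover showed mostly small values below 0. Of 23 genes, Ppp1r3c included, edgeR called 0 in either direction, 18 had a log2 change below 0, and the median was -0.10. Each LPS library lay below each saline library in 7 of them (30.4%, against 6.84% of all rows) and above in 1 (4.35%). Before adjustment, 3 (13%) had p under 0.05, all with lower values, against 3.54% of all rows. Besides Ppp1r3c these were Gys1, a glycogen synthase gene, at -0.37 (SE 0.15, adjusted p = 0.674 in edgeR), and Pygl, a glycogen phosphorylase gene, at -0.50 (SE 0.196, adjusted p = 0.632 in edgeR). Gys1 had 14.6, 20.1 and 13.9 CPM in saline and 11.3, 12.5 and 13.7 CPM in LPS libraries, so Saline 2 stood highest. In the list of glutamine, lactate and one-carbon metabolism, edgeR called 0 of 15 genes, and the median was -0.04. Its smallest p belonged to Slc38a5, a glutamine transporter gene (log2 0.36, SE 0.17), and Pfkfb3, a glycolysis regulator (-0.25, SE 0.125).

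Among the 7 identity genes and receptors, edgeR called 0, and 5 had a log2 change below 0, as did 7064 of all 14250 rows. Sox9, a transcription factor gene that marks astrocyte nuclei, had 50.4, 45.8 and 51.1 CPM in saline and 33.5, 48.4 and 37.2 CPM in LPS libraries. LPS 1 and LPS 3 were below all saline mice, while LPS 2 lay among them (log2 -0.31, SE 0.132, adjusted p = 0.698 in edgeR). DESeq2 gave Sox9 an adjusted p of 0.511. Without LPS 2, the log2 change of Sox9 was -0.47, with an adjusted p of 0.114 in edgeR and 5e-04 in DESeq2, and without LPS 1 it was -0.20, with 0.754 and 0.832. Leaving out any of the other libraries gave DESeq2 values for Sox9 from 0.657 to 0.906. Ndrg2, a member of a family regulated by N-myc, had 674, 639 and 665 CPM in saline and 611, 622 and 622 CPM in LPS libraries. The groups did not overlap (log2 -0.09, SE 0.05, adjusted p = 0.756 in edgeR). In the authors' FPKM the groups did overlap for Ndrg2, at 305.7 to 415.7 in saline and 283.3 to 386.5 in LPS libraries. Its ratio of FPKM to counts, taken relative to Saline 1, departed by up to 33.3% from the median of all rows, more than in any other member. Cldn10, a claudin gene, had 19.5, 21.1 and 19.8 CPM in saline and 19.0, 17.2 and 19.0 CPM in LPS libraries, without overlap (log2 -0.13, SE 0.0835, adjusted p = 0.789 in edgeR). The growth factor receptor gene Fgfr3 had a log2 change of -0.09 (SE 0.0981), the neurotensin receptor gene Ntsr2 0.10 (SE 0.0685) and the orphan receptor gene Gpr37l1 0.01 (SE 0.0662).

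**Figure D4:**
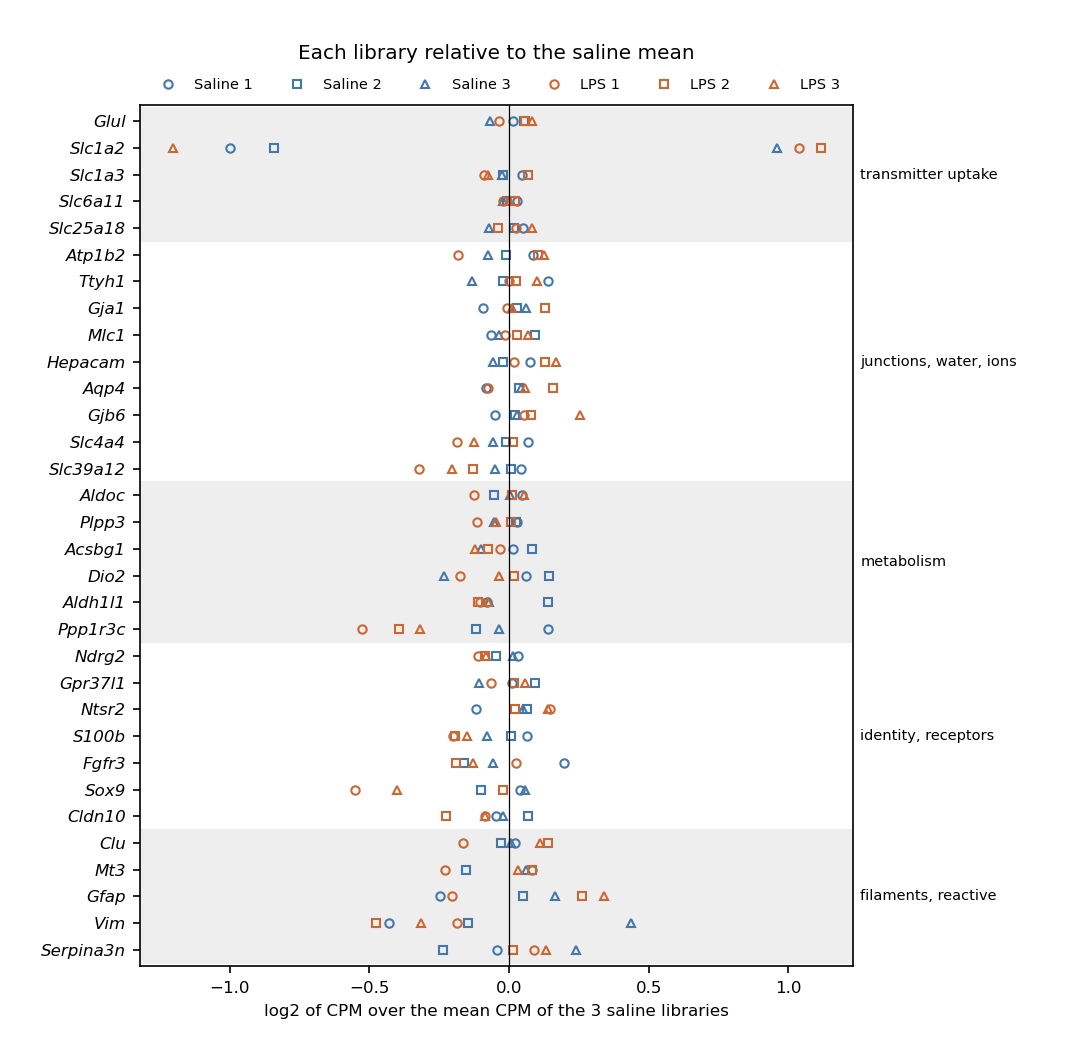
CPM of each astrocyte gene in each library, as log2 relative to the mean of the 3 saline libraries; blue is saline, orange LPS, and shapes mark the library number. Ppp1r3c, Slc39a12 and S100b have all 3 orange points to the left of the blue ones, Slc1a2 spreads over both sides, and most other genes overlap near 0.

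The filament and reactive genes gave no call either. Gfap, the filament gene that rises in reactive astrocytes, had 105, 129 and 140 CPM in Saline 1, 2 and 3, and 109, 150 and 158 CPM in LPS 1, 2 and 3. Saline 1 and LPS 1 were the lowest, so the groups overlapped over most of their range (log2 0.15, SE 0.179, adjusted p = 0.893 in edgeR, 95% interval -0.30 to 0.60). Leaving out 1 library moved the log2 change of Gfap between 0.04 (without Saline 1) and 0.30 (without LPS 1). The summed CPM of 15 oligodendrocyte markers, which are rich in white matter, were also lowest in those libraries. They were 2228, 2725 and 2824 in saline and 2199, 3030 and 2438 in LPS libraries. The sums of 10 meningeal markers ranked the 6 libraries as Gfap did, at 267, 444 and 501 in saline and 374, 551 and 705 in LPS libraries. The part of either tissue in the spread of Gfap was not tested. Vim, the vimentin gene, had 23.7, 28.8 and 43.2 CPM in saline and 28.0, 22.9 and 25.6 CPM in LPS libraries. Saline 3 alone stood above the rest (log2 -0.32, SE 0.237, adjusted p = 0.822 in edgeR). Without Saline 3 the log2 change of Vim was -0.04.

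Serpina3n, a protease inhibitor gene that is among the most induced in reactive astrocytes, stayed low. Its levels were 10.5, 9.19 and 12.8 CPM in saline and 11.5, 10.9 and 11.9 CPM in LPS libraries (log2 0.08, SE 0.129, adjusted p = 0.926 in edgeR), with the LPS values inside the saline range. It is one of a cluster of similar genes, and whether reads of the others were counted for it was not tested. Clu, the gene of the lipid-carrying chaperone clusterin, had 797 ± 14.7 and 816 ± 91.4 CPM (SD, n = 3 each). Mt3, a brain metallothionein gene, had 157 ± 13.8 and 154 ± 17.2 CPM. In a list of 7 metallothionein and zinc genes edgeR called 0, and Mt2 had the smallest p, with 55.8, 53.8 and 58.9 CPM in saline and 60.2, 72.2 and 69.4 CPM in LPS libraries (log2 0.26, SE 0.0778, adjusted p = 0.444 in edgeR). Mt1 overlapped between groups (0.11, SE 0.114).

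Levels per transcript length span a wide range within the list. By the authors' FPKM, averaged over the 6 libraries, Glul was highest at 637.4, followed by Clu at 464.8, Ndrg2 at 345.2 and Aldoc at 331.6. The lowest were Serpina3n at 4.94, Cldn10 at 8.29 and Sox9 at 9.82. The median member had an FPKM of 46.5 against 7.08 for all rows, and the median percentile among all rows was 91.3. Each defining marker, such as Aqp4, Aldh1l1, Gja1 and Slc1a3, was well detected in every library of both groups. Detection in bulk tissue does not show which cells the transcripts came from.

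**Figure D5:**
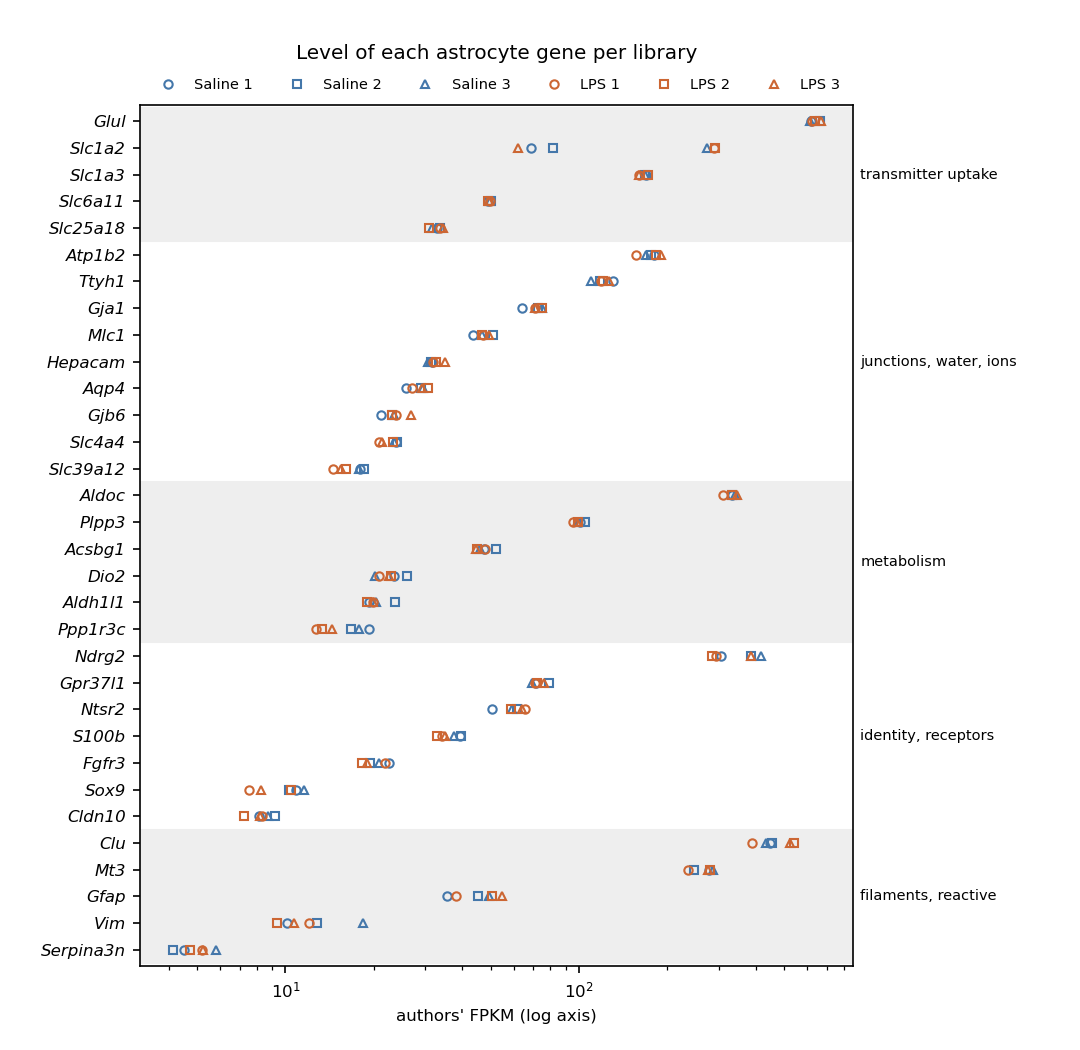
The authors' FPKM of each astrocyte gene in each library on a log axis, ordered by mean level within each role; blue is saline, orange LPS. Glul is highest at 637.4 on average and Serpina3n lowest at 4.94, and the libraries lie close together in most genes, with Slc1a2 in 2 clusters.

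Further astrocyte-enriched genes outside the 32 included 1 that passed the test. Of 48 such genes, edgeR called 1 higher and 0 lower, against 0.0982% and 0.189% of all rows. DESeq2 called 2 higher and 1 lower, against 0.421% and 0.561%. The median log2 change was 0.00, with 24 values on each side of 0. Before adjustment, 4 (8.33%) were higher and 3 (6.25%) lower at p under 0.05, against 3.63% and 3.54% of all rows. In 6 (12.5%) each LPS library lay above each saline library and in 2 (4.17%) below, against 6.84% of all rows in each direction. The gene called by edgeR was Hes5, a Notch target of astrocytes and progenitors. It had 10.8, 11.5 and 9.96 CPM in saline and 20.7, 20.9 and 18.9 CPM in LPS libraries (log2 0.91, SE 0.0952, adjusted p = 0.00424 in edgeR). Il33, an alarmin gene expressed by astrocytes and oligodendrocytes, ran from 26.3 to 32.5 CPM in the saline and from 17.4 to 21.8 CPM in the LPS libraries. The groups were apart (log2 -0.59, SE 0.114, adjusted p = 0.107 in edgeR, 0.000853 in DESeq2). Leaving out each library moved the DESeq2 adjusted p of Il33 between 3.98e-05 and 0.0569, the last without Saline 1. Sparc, a matrix protein gene of astrocytes and vessels, had 178, 176 and 189 CPM in saline and 208, 223 and 216 CPM in LPS libraries. It was higher in each LPS mouse (log2 0.25, SE 0.0566, adjusted p = 0.207 in edgeR, 0.0302 in DESeq2), and its DESeq2 call was lost without Saline 1, Saline 2, LPS 2 or LPS 3 (adjusted p 0.0542 to 0.121). Fabp7, a fatty acid-binding protein gene of immature astrocytes, stood at 0.53 on the log2 scale (SE 0.142, adjusted p = 0.358 in edgeR). Sox2, a progenitor and astrocyte transcription factor gene, had -0.23 (SE 0.0645, adjusted p = 0.397 in edgeR).

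A wider list of reactive astrocyte genes held 0 calls by edgeR among the 25 measured of 34, with 20 log2 changes above 0 and a median of 0.17. Lcn2, Steap4, Timp1, Ptx3, Cd109, Slc10a6, B3gnt5, Clcf1 and Lgals3 had no row, so the list gives no value for them. Before adjustment, 5 (20%) had higher and 1 (4%) lower values at p under 0.05, against 3.63% and 3.54% of all rows. DESeq2 called 2 of the 25 higher and 0 lower, against 0.421% and 0.561% of all rows. Tnc, a matrix glycoprotein gene, had 2.17, 3.25 and 3.63 CPM in saline and 5.17, 6.30 and 5.92 CPM in LPS libraries (log2 0.94, SE 0.203, adjusted p = 0.168 in edgeR, 0.00557 in DESeq2). Osmr, the oncostatin M receptor gene, had 5.63, 6.29 and 6.62 CPM in saline and 8.77, 9.10 and 8.79 CPM in LPS libraries (log2 0.52, SE 0.114, adjusted p = 0.176 in edgeR, 0.0443 in DESeq2). In both genes all LPS values exceeded all saline values. The DESeq2 call of Osmr held only without Saline 3 (adjusted p 0.011) and was lost without any other single library (0.0627 to 0.136). That of Tnc was lost without LPS 2 (0.112) or LPS 3 (0.0744). Il1r1, which codes for a receptor of interleukin-1, stood at a log2 change of 0.65 (SE 0.166, adjusted p = 0.32 in edgeR), and the filament gene Nes was on the lower side at -0.38 (SE 0.123, adjusted p = 0.508 in edgeR).

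Markers of other cells gave these values beside the reactive list. Meningeal genes, 9 of 10 with a log2 change above 0 and a median of 0.32, had sums of 267 to 501 CPM (saline) and 374 to 705 CPM (LPS). Mural cell genes, 8 of 9 above 0, summed to 383 to 436 and 402 to 469 CPM, and endothelial genes, 9 of 14 above 0, to 557 to 587 and 575 to 581 CPM. The edgeR test called 0 genes in each of these lists. Microglial genes, 10 of 15 above 0 and 0 called, had sums of 639 to 671 CPM (saline) and 643 to 710 CPM (LPS). The part of these cells in the values of Tnc, Osmr, Il1r1 and Sparc was not tested. Inhibitory neuron genes had 10 of 12 log2 changes above 0 and 0 called. Before adjustment, 4 (33.3%) were higher at p under 0.05, against 3.63% of all rows. Their sums were 1126 to 1154 CPM (saline) and 1165 to 1345 CPM (LPS), without overlap. Taken singly, 5 of the 12 genes (41.7%) were higher in each LPS library and 0 lower, against 6.84% of all rows in each direction. Excitatory neuron genes, 6 of 12 above 0 and 0 called, summed to 7506 to 8587 and 7759 to 8256 CPM. Oligodendrocyte precursor genes, 6 of 10 above 0 and 0 called, summed to 369 to 405 and 390 to 447 CPM. Of these 10, 3 (30%) were higher and 1 (10%) lower at unadjusted p under 0.05, against 3.63% and 3.54% of all rows. Of 11 ependymal and choroid plexus genes 5 were analysed, with 3 log2 changes above 0 and 2 below. The edgeR test called 1 of them higher, against 0.0982% of all rows. This was the ciliary dynein gene Dnah6 (log2 2.40, SE 0.286, adjusted p = 0.00788 in edgeR). Its level was low, at 0.527 ± 0.182 CPM in saline and 2.78 ± 0.18 CPM in LPS mice (SD, n = 3 each).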

How the data were processed

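RNA of 6 ACC samples (3 LPS, 3 saline, 1 mouse each) was sequenced from polyadenylated transcripts. The authors deposited raw counts per gene and, beside them, FPKM values. The submitters' processing notes name TopHat2 2.1, DESeq 1.10.1 and GRCm38, without roles. The sources used here give no counting program, annotation release, low-count filter or strand use. The 6 count columns held whole numbers, in 14250 rows, of which 688 named newGene have no identifier. Positions are from GENCODE M21 (GRCm38). In the members, exons of Glul and Slc25a18 overlap those of an opposite-strand gene.

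Here the counts were fitted with edgeR 4.0.16 in R 4.3.3 (TMM, robust quasi-likelihood, treatment as the only term, all libraries), and 0 rows were removed by filterByExpr. P-values are two-sided. Intervals use the fit's SE and degrees of freedom. Alternatives used DESeq2 1.42.0 and limma 3.58.1, the last also on log2(FPKM + 1) with a mean FPKM of at least 0.5. The edgeR step was also run on simulated counts, with an outcome that is not reported here. No libraries were near-duplicates (chi-square per degree of freedom at least 32.1).

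The members and lists were chosen with earlier results of these data known. Values in every library are given for members with an unadjusted p under 0.05 or without overlap and for 6 fixed genes. From each other list the called genes, or else up to 2 with the smallest p, are named. Some genes under this rule are not reported here. Il33, Sparc, Fabp7, Sox2, Il1r1, Nes, Zbtb20, Dnah6, the chromosome 19 neighbours, and the values by library of Sox9, Slc6a11, Aldh1l1, Gys1 and Mt2, were chosen after their values were seen.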

Additional observations from a re-analysis of the deposited data

How the results depend on the processing

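The count of astrocyte genes called stayed at 0 in both directions under each alternative run except DESeq2, which called 1 lower (Ppp1r3c; without LPS 2 it was Sox9). DESeq2 called 60 rows higher and 80 lower over the whole table. The higher count was 8 with FPKM in limma and 23 at a threshold of 0.1, which is looser by construction. The cause of the other differences was not tested. With the replicate number as a block, 10 genes were higher and 21 lower, with 0 members among them. Over all rows, deviations from the group mean were close to uncorrelated between same-numbered libraries (-0.02, 0.00 and 0.03 for numbers 1, 2 and 3). These correlations cannot show whether same-numbered mice shared a litter or handling, which the sources do not give. Leaving out 1 library gave 14 to 20 genes higher and 22 to 35 lower, and a member median between -0.03 and 0.03. The log2 ratio of the summed level ran from 0.035 to 0.226 in those fits. It was -0.02 as a mean of log2 values, 0.14 without Glul and -0.005 without Slc1a2, the last chosen after seeing the data.

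Of 32 members, 19 kept the sign of their log2 change under every alternative run, and the other 13 had small values that changed sign. Without 1 library the ranges were -0.007 to 0.109 for Aqp4, -0.056 to 0.033 for Aldoc, -0.169 to 0.014 for Fgfr3, -0.004 to 0.077 for Mlc1, -0.031 to 0.115 for Atp1b2 and -0.012 to 0.014 for Slc6a11. They were -0.026 to 0.217 for Serpina3n, -0.046 to 0.054 for Gpr37l1, -0.013 to 0.052 for Slc25a18, -0.104 to 0.057 for Mt3, -0.019 to 0.126 for Clu, -0.019 to 0.118 for Ttyh1 and -0.165 to 0.016 for Dio2. Slc6a11 had 0.006 with library totals alone and 0.000 with a mean of at least 50 counts or without the newGene rows, and Gpr37l1 had -0.001 with FPKM. Zbtb20, outside the list, ran from -3.034 to 0.085 without 1 library. The glycogen list kept 17 to 19 values below 0 and the wider reactive list 16 to 21 above 0 under all alternatives run, counts that were added after seeing the data. With 3 mice per group, the intervals of the variable genes Slc1a2, Vim and Gfap are the widest among the members.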

Other observations

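Zbtb20, a transcription factor gene also expressed by astrocytes, was high in the libraries where Slc1a2 was low, and was picked for that pattern. Its counts were 1977, 3232 and 94 in Saline 1, 2 and 3, and 325, 130 and 2761 in LPS 1, 2 and 3. Libraries with high Slc1a2 thus had low Zbtb20 in either treatment group. The authors' FPKM of Zbtb20 kept this order over a narrower range, at 2.48, 3.57 and 1.14 in saline and 1.97, 1.70 and 3.07 in LPS libraries. For Slc1a2 the ratio of FPKM to counts, relative to Saline 1, stayed within 2.5% of the median of all rows. For Zbtb20 counts and FPKM did not scale alike. Saline 1 had 1977 counts and an FPKM of 2.48, and Saline 3 had 94 counts and an FPKM of 1.14. How reads were counted or assigned to transcripts in each library was not tested for either gene.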
